A study of Mus musculus with 6 samples.

Results

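Mitochondrial genome expression was followed through 37 of the 55471 genes in the deposited table. These are the 13 mRNAs encoded by mitochondrial DNA and 24 nuclear genes whose products copy that DNA, transcribe it, or stabilise, polyadenylate, cut and degrade its RNA. They were chosen by name for what their products do. All 37 passed the filter on low counts. The polyA RNA came from 10T1/2 cells, a mouse embryonic fibroblast line kept in serum-containing medium with no treatment. The title of the study is about mitochondria touching nuclear pores. Its 2 groups are 3 libraries labelled Ranbp2 KO, edited with CRISPR/Cas9, and 3 WT libraries of the same line. No other allele or agent is named for either group. The sources used here do not say whether the KO-labelled cells are 1 clone, nor how the replicate cultures were kept apart. The p-values below therefore set the difference between groups against the spread of these libraries within groups. They cannot separate genotype from clone or culture.

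The targeted gene checks the labels first. Ranbp2, which encodes a large protein on the cytoplasmic face of the nuclear pore, stood at 294, 289 and 293 counts scaled to library size (CPM) in the KO-labelled libraries, against 219.6, 249.96 and 248.8 CPM in the WT libraries. Its mRNA was thus not lower under the KO label, with a log2 difference of 0.28 (SE 0.07, adjusted p = 0.0120 by edgeR's quasi-likelihood test). A count per gene does not show an edit inside a transcript, so the libraries are called KO-labelled throughout. Total counts ran from 32072817 to 39378190 in the KO-labelled libraries and from 41354198 to 46321967 in the WT libraries. The 10 fibroblast markers summed to 26206 to 32924 CPM in KO-labelled libraries and to 20395 to 23982 CPM in WT libraries, although Thy1, a surface glycoprotein among them, averaged 0.533 CPM in KO-labelled and 58.3 CPM in WT libraries. By the same test, at an adjusted p below 0.05, Fn1, Col3a1, Pdgfra, Dcn and Lum were higher and Col1a1, Pdgfrb and Thy1 lower. Fn1 averaged 14511 CPM in KO-labelled and 5860 CPM in WT libraries, and Col1a1 4230 and 5716 CPM. Markers of other cell types were low. The 5 epithelial markers summed to 5.95 to 8.97 CPM in KO-labelled and 2.14 to 2.60 CPM in WT libraries, and the 5 endothelial markers to 6.52 to 7.57 CPM in KO-labelled and 0.827 to 1.20 CPM in WT libraries. In KO-labelled libraries most of the epithelial sum was Cdh1 (mean 7.46 CPM, against 2.22 CPM in WT) and most of the endothelial sum Vwf (6.04 against 0.269 CPM). Pecam1 was higher too (0.793 against 0.347 CPM), while Cdh5 (0.0106 against 0.131 CPM) and Kdr (0.0213 against 0.294 CPM) were lower. The haematopoietic, neuronal and muscle lists each summed to at most 2.17 CPM in any library, and Adgre1 and Myog were at 0 counts in every library. The part of these markers in the results below was not tested. Across all 15454 genes tested, 38.9% were called at an adjusted p below 0.05, 17.6% higher and 21.3% lower in KO-labelled libraries, and the median log2 difference was 0.01. These shares are the background for every count of members.

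Mammalian mitochondrial DNA is a small circle whose 2 strands are transcribed as long RNAs by the polymerase Polrmt with the factors Tfam and Tfb2m. The transfer RNAs that lie between most of the genes are cut out, which frees the mRNAs and ribosomal RNAs, and most of the mRNAs then receive short poly(A) tails. All 13 mRNAs encode membrane subunits of the respiratory chain and ATP synthase, and all but mt-Nd6 are read from the same template strand. Because the mRNAs begin as shared precursors, differences in their levels are usually set after transcription, through processing, stabilising proteins such as Lrpprc and Slirp, and decay.

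The counts of the mitochondrial mRNAs depended on sequence shared with the nuclear genome. The annotation places 7 unprocessed pseudogenes side by side on the minus strand of mouse chromosome 1, in chr1:24611535-24616197 (GRCm38), and each repeats a mitochondrial mRNA at 99% identity or more. Of these, 5 held no mismatch over the aligned stretch and 2 held 1 mismatch. The sequences below show how little separates a mitochondrial mRNA from its copy. They are read 5′ to 3′, and capitals mark the base that differs in the first 2 pairs. In the third, capitals mark mitochondrial bases beyond the end of the annotated pseudogene, and the chromosome 1 bases there were not compared.
mt-Nd3: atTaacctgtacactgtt
Gm28438: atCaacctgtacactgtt
mt-Co1: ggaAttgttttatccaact
Gm29216: ggaTttgttttatccaact
mt-Co2: gaaaactgatctgcttcaataattTAA
Gm28661: gaaaactgatctgcttcaataatt

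The first pair lies at chrM:9459-9476 on the plus strand and chr1:24613102-24613119 on the minus strand, the second at chrM:6390-6408 and chr1:24616170-24616188, and the third at chrM:7670-7696 and chr1:24614885-24614908, with the same strands. Counted from 1 at the first base of the mitochondrial mRNA, the differences are T3C for mt-Nd3 and A1066T for mt-Co1, with the mitochondrial base named first. The mt-Nd3 copy aligned over 345 bases at 99.7% identity, and the mt-Co1 copy, Gm29216, over 483 of the 1545 bases of mt-Co1. The copies of mt-Co2 (Gm28661, 681 of 684 bases), mt-Co3 (Gm28437, 783 of 784 bases), mt-Atp6 (Gm10925, 678 of 681 bases) and mt-Nd4l (Gm10222, 294 of 297 bases) were identical over nearly the whole mRNA. The copy of mt-Nd4, Gm28439, was identical over 876 of its 1378 bases. The other 6 mRNAs, mt-Nd1, mt-Nd2, mt-Nd5, mt-Nd6, mt-Cytb and mt-Atp8, had no annotated copy of this kind. Only annotated transcripts were searched. The last 43 bases of mt-Atp8 are shared with mt-Atp6 and lie inside its identical copy Gm10925. mt-Atp8 starts between mt-Co2 and mt-Atp6, whose copies are neighbours on chromosome 1. Whether the stretch between these copies repeats mt-Atp8 was not tested. More diverged nuclear copies exist on other chromosomes, and none of them held more than 14.5 counts over the 6 libraries together.

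The expected counts, which RSEM divides among matching genes, were split unevenly between each mRNA and its copy. For mt-Co2, mt-Co3 and mt-Atp6, the nuclear copy received 94.4% to 96.9%, 97.1% to 99.9998% and 95.6% to 97.3% of the counts of the pair over the 6 libraries. For mt-Nd3 and mt-Nd4l it received 61.9% to 82.7% and 62.7% to 74.1%. For mt-Nd4 the share was 11.0% to 18.1%, and for mt-Co1, whose copy covers only its 3′ part, 6.39% to 7.57%. The row of mt-Co3 shows the consequence, with 965, 6734 and 1918 expected counts in KO-labelled libraries and 0.25, 4694 and 2731 in WT libraries, while the row of its copy was never below 3436 CPM. Within the identical stretches the reads of a pair cannot be told apart by their sequence, whereas reads over a mismatch can. The chromosome 1 sequence beyond the annotated pseudogenes was not searched. Each mRNA is therefore given below with its copy added, and its own row is given where the call differs.

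**Figure D1:**
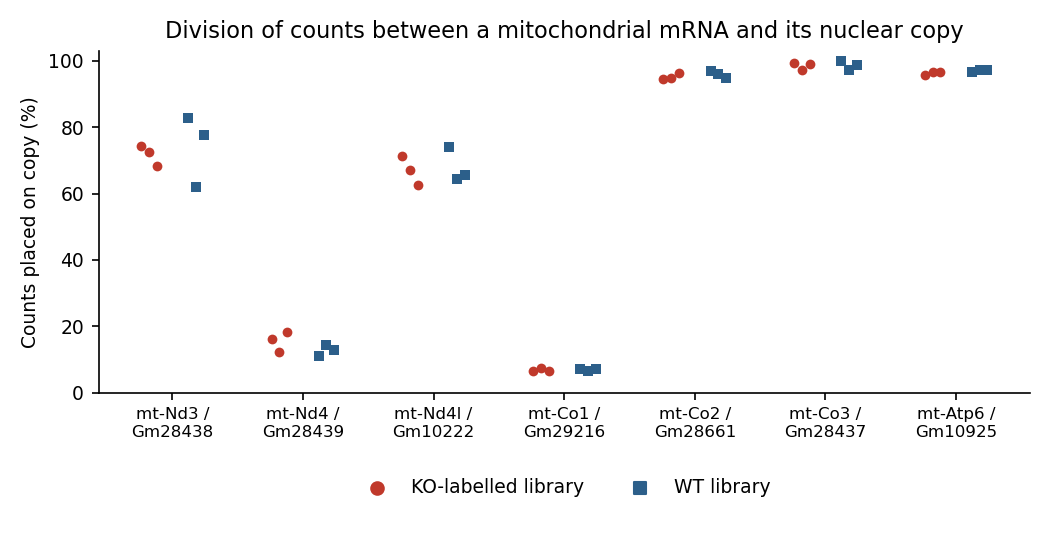
Share of the counts of each mitochondrial mRNA and its chromosome 1 copy that was placed on the copy, in percent, with 1 point per library (3 KO-labelled, 3 WT). The copies of mt-Co2, mt-Co3 and mt-Atp6 hold over 94% in every library, and that of mt-Co1 at most 7.57%.

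Neighbouring mitochondrial mRNAs also share bases with each other. The open reading frames of mt-Atp8 and mt-Atp6, and those of mt-Nd4l and mt-Nd4, overlap on the same strand, and these messages are known to be bicistronic. The genes of mt-Atp6 and mt-Co3 share 1 base, also on the same strand. The windows below show the longer overlaps, at chrM:7912-7984 and chrM:10152-10188, plus strand, with the bases that belong to both genes in capitals.
mt-Atp8/mt-Atp6: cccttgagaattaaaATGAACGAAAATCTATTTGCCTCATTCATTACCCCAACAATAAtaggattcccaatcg
mt-Nd4l/mt-Nd4: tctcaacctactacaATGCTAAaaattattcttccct

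The first overlap is 43 bases and the second 7 bases, and in both the start codon of the downstream frame opens the capitals. The mt-Nd5 and mt-Nd6 genes overlap by 14 bases on opposite strands. Whether the counting used strand is not given in the sources used here, so reads from the 2 strands over mt-Nd6 cannot be told apart and its level is uncertain.

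As a whole, the 13 mitochondrial mRNAs took 3.41%, 4.32% and 4.05% of all counts in the KO-labelled libraries, against 2.48%, 2.74% and 3.70% in the WT libraries. The means were 3.93% ± 0.470 and 2.97% ± 0.641 (SD, n = 3 each), and WT replicate 3 lay above KO-labelled replicate 1, so the groups overlapped. With the 7 copies added, the shares were 4.89%, 6.42% and 6.09% in KO-labelled libraries and 3.77%, 4.12% and 5.60% in WT libraries. The Wilson 95% interval of a library's share was at most 0.0136 percentage points wide, which covers counting error only. In bulk RNA, fewer cells of a type and less RNA per cell cannot be told apart, and a share of counts does not separate more mitochondrial RNA from less RNA of other genes.

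The libraries differed in mitochondrial RNA within each group too. KO-labelled replicate 1 had the lowest level of its group for all 13 mRNAs, and WT replicate 3 had the highest of its group for all 13. The 22 nuclear genes listed as core partners of the mitochondrially encoded subunits, such as the complex I subunit Ndufs1 and the complex IV subunit Cox5b, varied much less, with summed levels of 3581, 4006 and 3847 CPM in KO-labelled and 3668, 3696 and 3648 CPM in WT libraries. The ratio of the 13 mRNAs with copies to these partners was 12.9, 16.2 and 16.2 in KO-labelled libraries, against 10.2, 11.2 and 15.6 in WT libraries. The WT value of 15.6 lies between the KO-labelled values.

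Tested 1 by 1 as deposited, 4 of the 13 mitochondrial mRNAs rose in KO-labelled libraries (mt-Nd5, mt-Nd6, mt-Co1 and mt-Atp6), none fell, and their median log2 difference was 0.49. With the copies added, 5 rose (mt-Nd3, mt-Nd4l, mt-Nd5, mt-Nd6 and mt-Co1), none fell, and the median was 0.43. The share called in that fit was 38.9% of 15447 genes. Both counts of increases include mt-Nd6, whose level is uncertain because the strand setting is not given. Of the 13 summed values, only mt-Nd5 had KO-labelled libraries that did not overlap the WT ones; over all genes tested, 24.6% lay wholly above and 26.8% wholly below, 51.4% together. All log2 differences of the mitochondrial mRNAs are relative to TMM scaling. Each of the 4 deposited rows that rose kept its call in 2 of the 6 fits that left out 1 library, those without KO-labelled replicate 1 and without WT replicate 3. The largest adjusted p of those fits was 0.0778 for mt-Nd5, 0.121 for mt-Nd6, 0.0942 for mt-Co1 and 0.110 for mt-Atp6.

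The 7 mRNAs of complex I, the NADH dehydrogenase, held 4 of the 5 increases, with the uncertain mt-Nd6 counted among them. The mRNA of mt-Nd5, a proton-pumping subunit at the far end of the membrane arm, stood at 4072, 4902 and 4760 CPM in KO-labelled libraries, against 2395, 2782 and 3882 CPM in WT libraries. Every KO-labelled value exceeded every WT value, and the log2 difference was 0.60 (SE 0.17, adjusted p = 0.0193 by edgeR). The row of mt-Nd6, the only mRNA read from the other strand, stood at 1380, 1654 and 1543 CPM in KO-labelled and at 845, 884 and 1387 CPM in WT libraries. WT replicate 3 reached the level of KO-labelled replicate 1, and the log2 difference was 0.55 (SE 0.18, adjusted p = 0.0310). With DESeq2 the mt-Nd6 log2 difference no longer passed (adjusted p = 0.0706). Because the strand setting is not given, reads of the opposite strand cannot be set apart in the mt-Nd6 row. Its log2 difference of 0.55, close to the 0.60 of mt-Nd5, is therefore not taken as a separate increase. The effect of selection for poly(A) on the mt-Nd6 row was not tested.

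The mRNAs of the small membrane subunits mt-Nd3 and mt-Nd4l, summed with their copies, rose as well. mt-Nd4l had 477, 686 and 678 CPM in KO-labelled libraries and 370.02, 423 and 479 CPM in WT libraries, a log2 difference of 0.53 (SE 0.14, adjusted p = 0.0159). KO-labelled replicate 1 and WT replicate 3 were nearly level. mt-Nd3 had 213, 385 and 376 CPM in KO-labelled and 197, 202 and 258 CPM in WT libraries, a log2 difference of 0.57 (SE 0.20, adjusted p = 0.0491). The deposited rows of these genes alone did not pass, with adjusted p of 0.0928 for mt-Nd3 and 0.0760 for mt-Nd4l. In the summed fits that left out 1 library, mt-Nd3 and mt-Nd4l passed only without KO-labelled replicate 1 or WT replicate 3, and their adjusted p reached 0.171 and 0.0646. With DESeq2 the summed mt-Nd3 log2 difference did not pass (adjusted p = 0.0960).

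The other 3 complex I mRNAs did not pass the test. mt-Nd4, another proton-pumping subunit, had 5329.7, 7398 and 7253 CPM in KO-labelled and 3636, 4139 and 6002 CPM in WT libraries, a log2 difference of 0.54 (SE 0.20, adjusted p = 0.0543). It shares a bicistronic message with mt-Nd4l, so the 2 results are not independent. Their log2 differences, 0.54 and 0.53, were nearly the same although only mt-Nd4l passed. mt-Nd2 had a log2 difference of 0.43 (SE 0.19, adjusted p = 0.0929). mt-Nd1, which helps to form the quinone site, stood at 3371, 4884 and 4532 CPM in KO-labelled and at 3328, 3672 and 5267 CPM in WT libraries. WT replicate 3 was above every KO-labelled library, and the log2 difference was 0.06 (95% interval -0.31 to 0.43).

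The mRNA of mt-Cytb, the catalytic haem protein of complex III and the only subunit of that complex encoded in mitochondria, did not follow mt-Nd5. It had 3854, 5412 and 5046 CPM in KO-labelled libraries, against 3995, 4367 and 6113 CPM in WT libraries. The ranges overlap, with KO-labelled replicate 1 lowest and WT replicate 3 highest of the 6 libraries, and the log2 difference was -0.02 (95% interval -0.37 to 0.34, adjusted p = 0.953).

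Among the 3 mRNAs of complex IV, cytochrome c oxidase, mt-Co1 rose. This mRNA of the catalytic core subunit had 12266, 16578 and 16022 CPM in KO-labelled and 8943, 9931 and 12323 CPM in WT libraries. WT replicate 3 was level with KO-labelled replicate 1, and the log2 difference was 0.52 (SE 0.16, adjusted p = 0.0296). mt-Co2, the copper subunit that takes electrons from cytochrome c, had 4053, 6146 and 5786 CPM in KO-labelled and 3868, 4149.5 and 5654 CPM in WT libraries, a log2 difference of 0.23 (SE 0.19, adjusted p = 0.368). mt-Co3 had 3827, 6037 and 5917 CPM in KO-labelled and 3436, 3758 and 4711 CPM in WT libraries, a log2 difference of 0.41 (SE 0.19, adjusted p = 0.110). For both mt-Co2 and mt-Co3 the KO-labelled and WT libraries overlapped.

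The call on mt-Atp6, a membrane subunit of ATP synthase, depended on where its reads were placed. Its deposited row had 193, 239 and 224 CPM in KO-labelled libraries and 145, 132 and 198 CPM in WT libraries, a log2 difference of 0.47 (SE 0.14, adjusted p = 0.0271). That row holds under 5% of the counts of the pair. With the copy Gm10925 added, the levels were 4429.6, 6846 and 6652 CPM in KO-labelled and 4325, 4769 and 7353 CPM in WT libraries, and the log2 difference was 0.12 (SE 0.22, adjusted p = 0.691). No copy of mt-Atp8 is annotated, but its last 43 bases, shared with mt-Atp6, lie inside Gm10925. mt-Atp8 had 441, 789 and 728 CPM in KO-labelled and 501, 516 and 669 CPM in WT libraries. KO-labelled replicate 1 was the lowest of the 6 libraries, and the log2 difference was 0.22 (SE 0.20, adjusted p = 0.418).

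**Figure D2:**
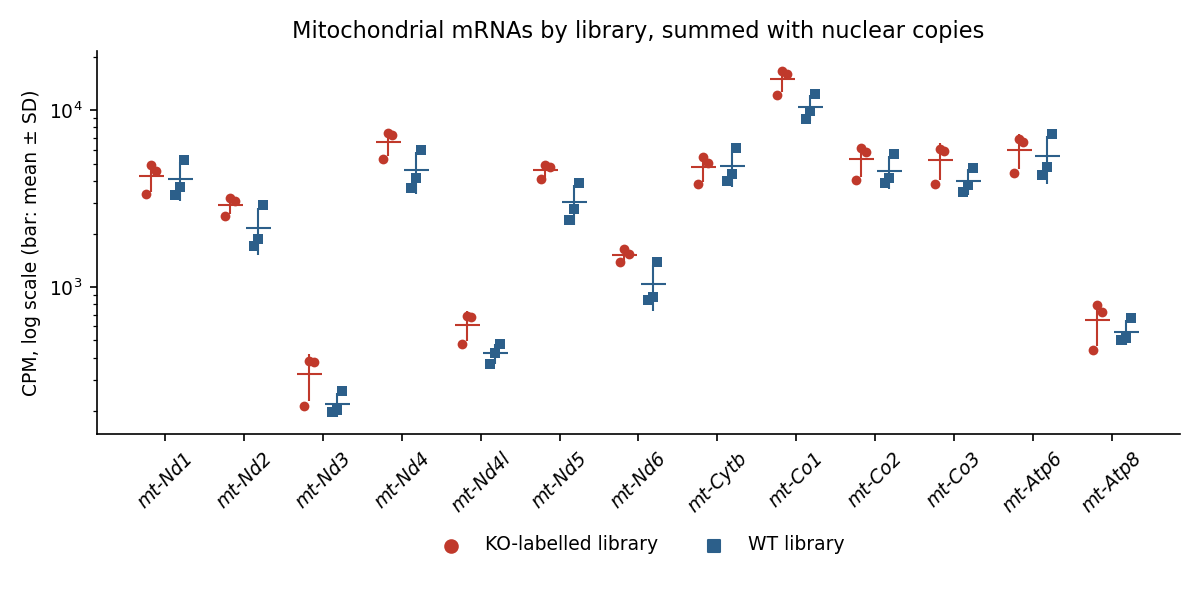
Level of each mitochondrial mRNA, summed with its nuclear copy, in CPM on a log scale, with 1 point per library and bars for the mean ± SD of 3 libraries per group. For mt-Nd5 the KO-labelled libraries (4072 to 4902 CPM) lie above the WT libraries (2395 to 3882 CPM), and for every other mRNA the groups overlap.

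**Figure D3:**
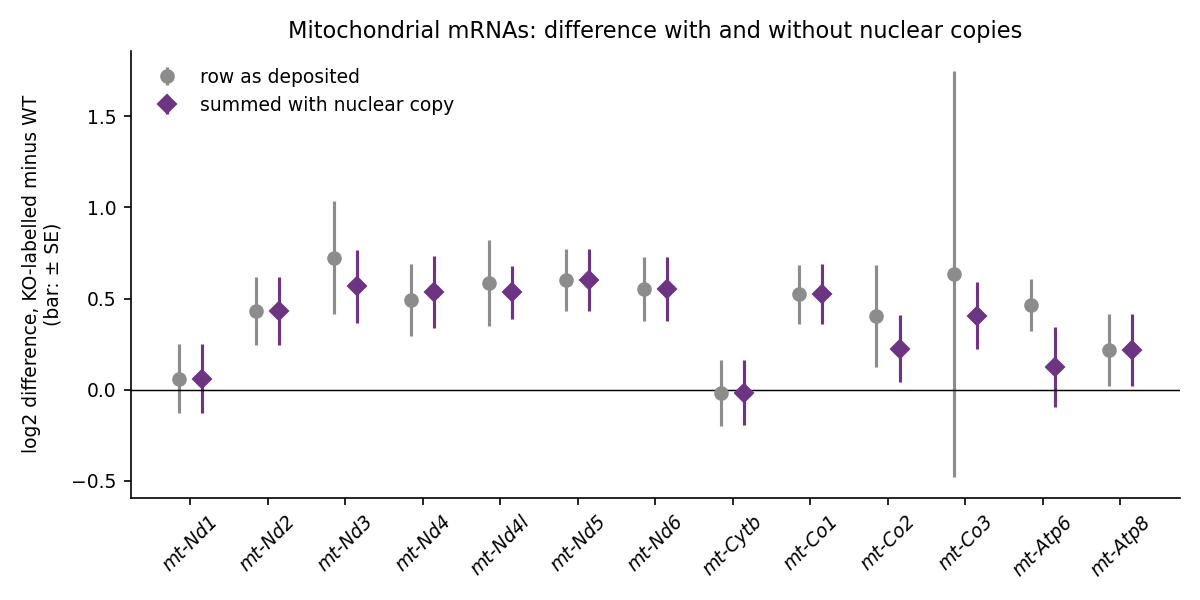
Log2 difference, KO-labelled minus WT, of each mitochondrial mRNA with its SE, for the deposited row and for the sum with the nuclear copy. The sum moves mt-Atp6 to 0.12, against 0.47 for its own row, and narrows the error of mt-Co3.

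Per kilobase of gene length, the order of levels ran in KO-labelled libraries from mt-Co1 at 9679.9 CPM per kb, through mt-Atp6 at 8775, mt-Co2 at 7789.8 and mt-Co3 at 6709.7, to mt-Nd4l at 2067 and mt-Nd3 at 933 CPM per kb. In WT libraries the ends of the order were mt-Atp6 at 8050.4 CPM per kb and mt-Nd3 at 629.9 CPM per kb, with mt-Co1 at 6731 CPM per kb. Neighbours in this order had overlapping ranges over the 3 libraries of a group, with the exception of mt-Nd4l and mt-Nd3 at its lower end. There, mt-Nd4l ran from 1607 to 2309 CPM per kb and mt-Nd3 from 612 to 1105 CPM per kb in KO-labelled libraries, and from 1246 to 1612 and from 567 to 743 CPM per kb in WT libraries.

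Because the libraries differed in total mitochondrial RNA, each mRNA was also expressed as a percentage of the counts of the 13 mRNAs with copies in its own library. This measure was added after the levels had been seen, and since the shares of a library sum to 100, an increase in some must be matched by a decrease in others. An exact two-sided permutation test of 3 against 3 libraries cannot go below p = 0.1, which every mRNA without overlap reached. By this measure the groups did not overlap for 9 of the 13 mRNAs, of which 5 had a larger share in KO-labelled libraries and 4 a smaller share. The levels of 51.4% of all genes tested did not overlap between these groups either, so the count of 9 is given as a description.

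The smaller shares were those of mt-Cytb, mt-Nd1, mt-Atp6 and mt-Co2. mt-Cytb held 8.33%, 8.34% and 8.09% of the pool in KO-labelled libraries, against 10.6%, 10.5% and 10.7% in WT libraries. The groups lie far apart relative to their spread, at 8.26% ± 0.141 and 10.6% ± 0.0982 (SD, n = 3 each), a ratio of 0.777. mt-Nd1 held 7.29%, 7.53% and 7.27% in KO-labelled and 8.86%, 8.85% and 9.24% in WT libraries, a ratio of 0.819. For mt-Atp6 the mean shares were 10.3% ± 0.597 in KO-labelled and 11.97% ± 0.805 in WT libraries, and for mt-Co2 9.17% ± 0.365 and 10.1% ± 0.199. These directions rest on the copies, since without them the log2 ratio of the mt-Co2 share of the mitochondrial mRNA pool was 0.0752 and that of the mt-Atp6 share of the mitochondrial mRNA pool 0.0839.

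The larger shares were those of mt-Nd5, mt-Nd6, mt-Nd4, mt-Co1 and mt-Nd4l. mt-Nd5 held 8.80%, 7.55% and 7.63% of the pool in KO-labelled libraries and 6.38%, 6.71% and 6.81% in WT libraries, a ratio of 1.21. mt-Nd6 held 2.98%, 2.55% and 2.47% in KO-labelled and 2.25%, 2.13% and 2.43% in WT libraries, a ratio of 1.18. KO-labelled replicate 1, which had the least mitochondrial RNA of its group, had the largest share of both. The shares of mt-Nd6 carry the same uncertainty about strand as its level. The ratios were 1.14 for mt-Nd4, 1.12 for mt-Co1, the most abundant at 25.9% ± 0.528 in KO-labelled and 23.1% ± 1.31 in WT libraries, and 1.12 for mt-Nd4l. The groups overlapped for mt-Nd2, mt-Nd3, mt-Co3 and mt-Atp8. Restricted to the 6 mRNAs without an annotated copy, mt-Cytb and mt-Nd1 again had smaller shares in KO-labelled libraries, with ratios of 0.825 and 0.871. mt-Nd5 and mt-Nd6 had larger shares, with ratios of 1.28 and 1.25. None of these shares overlapped between the groups. mt-Nd2, whose groups overlapped in the pool of 13, also had a larger share among these 6 without overlap, at a ratio of 1.14. mt-Cytb had 24.6%, 26.0% and 25.6% of these 6 in KO-labelled libraries and 31.3%, 31.0% and 30.2% in WT libraries.

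**Figure D4:**
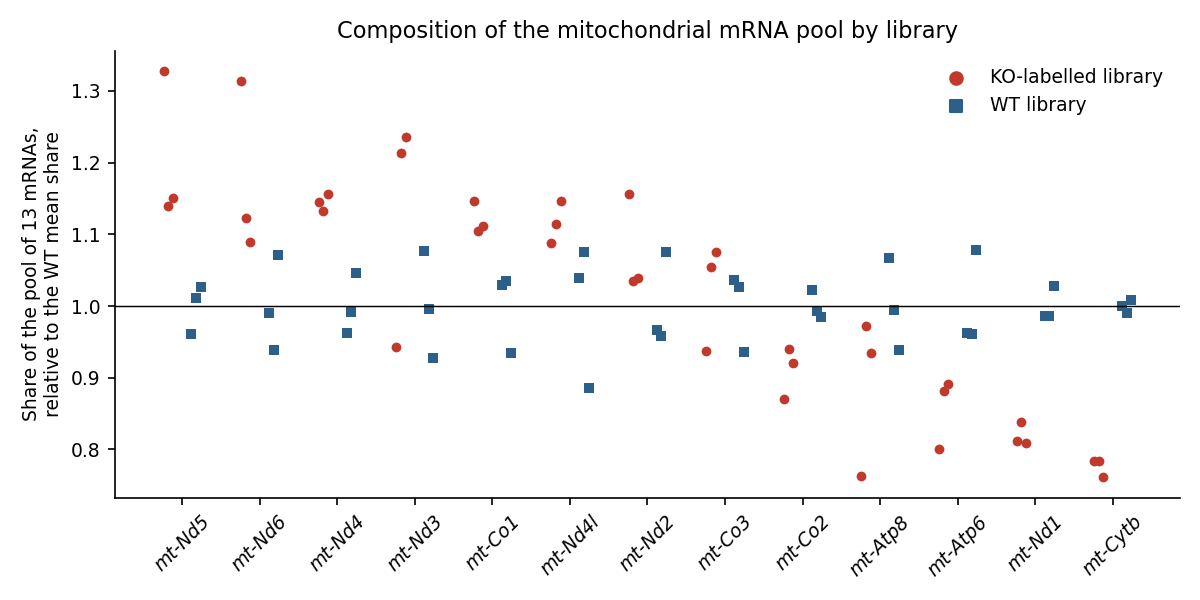
Share of each mRNA in the pool of 13 mitochondrial mRNAs with copies, divided by the WT mean share of that mRNA, with 1 point per library. mt-Nd5, at a mean ratio of 1.21, stands at the left end and mt-Cytb, at 0.777, at the right end.

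The ribosomal RNAs of the mitochondrial DNA, read from the same strand as most of the mRNAs, did not pass the test in either direction. mt-Rnr1, the small subunit rRNA, had 195, 357 and 326 CPM in KO-labelled and 259.7, 218 and 259.9 CPM in WT libraries, a log2 difference of 0.25 (SE 0.19, adjusted p = 0.321). mt-Rnr2, the large subunit rRNA, had 582, 1045 and 801 CPM in KO-labelled and 865, 855 and 1028 CPM in WT libraries, a log2 difference of -0.18 (SE 0.18, adjusted p = 0.467). Together they held 0.110% ± 0.0283 of counts in KO-labelled and 0.115% ± 0.0102 in WT libraries, and selection for poly(A) limits what such counts say of rRNA levels. All 22 mitochondrial tRNA genes were at 0 counts in every library.

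The 24 nuclear members moved in both directions. Of these, 5 rose (Tfb1m, Lrpprc, Fastkd2, Ssbp1 and Pnpt1), 4 fell (Tbrg4, Fastkd3, Mterf3 and Mterf4) and 15 did not pass, with a median log2 difference of 0.06. With the mitochondrial mRNAs, 13 of the 37 members were called, 35.1%, near the 38.9% of all genes tested. The number of members called was 5 without KO-labelled replicate 2 or 3, 7 without WT replicate 1 and 6 without WT replicate 2. KO-labelled libraries lay wholly above WT libraries for 7 of the 24 nuclear members and wholly below for 6, where 24.6% and 26.8% of all genes tested did so. The level of nuclear genes also went with their chromosome in this comparison. The median log2 difference was 0.29 over 967 genes of chromosome 1, 0.27 over 783 genes of chromosome 17, -0.28 over 646 genes of chromosome 13 and -0.07 over 1115 genes of chromosome 11. The value of the chromosome is given below beside each nuclear member that passed the test, and the plot of nuclear members shows it for all 24. Its part in each result was not tested.

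Among the 8 genes of mitochondrial transcription, the largest difference was that of Tfb1m (ENSMUSG00000036983, chr17:3519256-3557781, minus strand), the methyltransferase that modifies the small ribosomal RNA. It had 13.3, 13.1 and 12.1 CPM in KO-labelled libraries, against 8.60, 8.85 and 8.65 CPM in WT libraries. The groups did not overlap, and the log2 difference was 0.56 (SE 0.09, adjusted p = 0.000840), or 0.29 above the median of chromosome 17. Its paralogue Tfb2m, the factor that opens the promoter for Polrmt, had 30.7, 30.8 and 28.3 CPM in KO-labelled and 23.4, 29.1 and 29.3 CPM in WT libraries, and did not pass (log2 difference 0.14, adjusted p = 0.285); relative to the chromosome 1 median of 0.29 it stood at -0.15.

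The core of the transcription machinery showed small differences that did not pass. Polrmt, the polymerase itself, had a log2 difference of -0.14 (95% interval -0.37 to 0.09) and Tefm, its elongation factor, -0.16 (-0.40 to 0.07). Tfam, which packages mitochondrial DNA and bends its promoters, had 54.8, 52.1 and 53.3 CPM in KO-labelled libraries and 44.0, 47.5 and 49.3 CPM in WT libraries. Its groups did not overlap, yet the difference of 0.18 on the log2 scale missed the threshold (SE 0.07, adjusted p = 0.0676). Mterf1a, a termination factor that binds mitochondrial DNA, was in the same position at 0.38 (SE 0.15, adjusted p = 0.0641), with 5.82, 5.29 and 4.92 CPM in KO-labelled and 3.61, 4.002 and 4.70 CPM in WT libraries.

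The related proteins Mterf3, known as a repressor of mitochondrial transcription, and Mterf4, which recruits a methyltransferase to the mitochondrial ribosome, fell. Mterf3 had 24.2, 22.6 and 22.1 CPM in KO-labelled libraries and 24.4, 28.2 and 29.7 CPM in WT libraries, a log2 difference of -0.26 (SE 0.09, adjusted p = 0.0411). The median of its chromosome 13 was -0.28, and relative to it Mterf3 stood at 0.03. Mterf4 had 11.8, 12.5 and 11.7 CPM in KO-labelled and 14.1, 14.0 and 14.2 CPM in WT libraries, a log2 difference of -0.23 (SE 0.08, adjusted p = 0.0433), on chromosome 1 with its median of 0.29. Of the 6 fits that left out 1 library, Mterf3 passed in 2, those without KO-labelled replicate 1 or WT replicate 1, and Mterf4 in 0, with adjusted p of up to 0.132 and 0.124.

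Of the 4 replication proteins, Ssbp1 rose. This single-stranded DNA binding protein, which coats the exposed strand during replication, had 33.8, 32.8 and 32.3 CPM in KO-labelled libraries and 22.2, 25.8 and 27.9 CPM in WT libraries. The groups did not overlap, and the log2 difference was 0.38 (SE 0.09, adjusted p = 0.00740), on chromosome 6 with a median of 0.17. The DNA polymerase gamma subunits did not pass, with log2 differences of 0.02 for the catalytic Polg (95% interval -0.14 to 0.19) and 0.09 for the accessory Polg2 (-0.20 to 0.39). Twnk, the replicative helicase, had 16.9, 16.2 and 17.2 CPM in KO-labelled and 18.6, 18.6 and 19.6 CPM in WT libraries, which did not overlap, and a log2 difference of -0.18 (adjusted p = 0.0754), near the median of -0.19 on its chromosome 19.

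Among the proteins of mRNA stability and decay, Lrpprc (ENSMUSG00000024120, chr17:84705247-84790789, minus strand) had the smallest adjusted p of all 24 nuclear members. Lrpprc binds mitochondrial mRNAs with Slirp, keeps them stable and promotes their polyadenylation. It stood at 133, 132 and 130.3 CPM in KO-labelled libraries, against 94.1, 94.4 and 93.0 CPM in WT libraries. The replicates of each group lay close together, at 132 ± 1.56 and 93.8 ± 0.709 CPM (SD, n = 3 each), and the log2 difference was 0.49 (SE 0.06, adjusted p = 0.000150). Relative to the median of chromosome 17 it was 0.22. Its partner Slirp had 19.9, 29.8 and 27.5 CPM in KO-labelled and 22.8, 24.3 and 24.6 CPM in WT libraries, a log2 difference of 0.11 (95% interval -0.15 to 0.36). With all libraries the partners' mRNAs were thus not called together. In the edgeR fit without KO-labelled replicate 1, Slirp was called higher as well (adjusted p = 0.0288).

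Pnpt1 encodes the exonuclease of the mitochondrial degradosome and Supv3l1 the helicase that feeds it. Pnpt1 had 58.5, 55.4 and 52.2 CPM in KO-labelled libraries and 40.2, 45.4 and 51.1 CPM in WT libraries, and it rose by a log2 difference of 0.28 (SE 0.10, adjusted p = 0.0424), on chromosome 11 with a median of -0.07. It kept its call in 1 of the 6 fits without 1 library, that without WT replicate 3, with adjusted p of up to 0.123. Supv3l1 did not pass (log2 difference 0.02, 95% interval -0.13 to 0.17), nor did the poly(A) polymerase Mtpap, at 32.3 ± 2.55 CPM in KO-labelled and 30.0 ± 0.836 CPM in WT libraries (SD, n = 3 each).

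The FASTK family of RNA-binding proteins, which act on the processing, stability and translation of individual mitochondrial RNAs, was listed with the granule protein Grsf1. Of these 7 genes, 1 rose, 2 fell and 4 did not pass. Fastkd2, needed for the mitochondrial ribosome, rose, with 31.8, 35.0 and 32.9 CPM in KO-labelled libraries and 22.2, 26.7 and 27.3 CPM in WT libraries. Its groups did not overlap, and the log2 difference was 0.39 (SE 0.09, adjusted p = 0.00777), or 0.10 above the chromosome 1 median of 0.29. Tbrg4, also known as Fastkd4 (ENSMUSG00000000384, chr11:6615598-6626067, minus strand), fell, with 39.7, 40.0 and 41.2 CPM in KO-labelled libraries and 54.4, 54.7 and 45.8 CPM in WT libraries. Its log2 difference of -0.36 (SE 0.08, adjusted p = 0.00807) stood well below the chromosome 11 median of -0.07. Fastkd3 fell as well, with 15.6, 13.7 and 12.9 CPM in KO-labelled and 17.1, 17.8 and 18.6 CPM in WT libraries, a log2 difference of -0.34 (SE 0.09, adjusted p = 0.0146), against a chromosome 13 median of -0.28. Fastkd3 kept its call in 3 of the 6 fits without 1 library and lost it without KO-labelled replicate 2 or 3 or WT replicate 2, where its adjusted p reached 0.0615.

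The remaining proteins of the mitochondrial RNA granules, the sites where new transcripts are processed, did not pass. Fastk, known to be needed for the mRNA of Nd6, had a log2 difference of -0.09 (95% interval -0.23 to 0.06). Fastkd1 stood at -0.08 (-0.25 to 0.09) and Fastkd5, known for processing of mRNA ends that no tRNA flanks, at -0.14 (-0.30 to 0.02). Grsf1, a granule protein that binds G-rich sequences of light-strand transcripts, had 81.0 ± 3.14 CPM in KO-labelled and 74.5 ± 4.77 CPM in WT libraries, a log2 difference of 0.12 (-0.02 to 0.26).

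**Figure D5:**
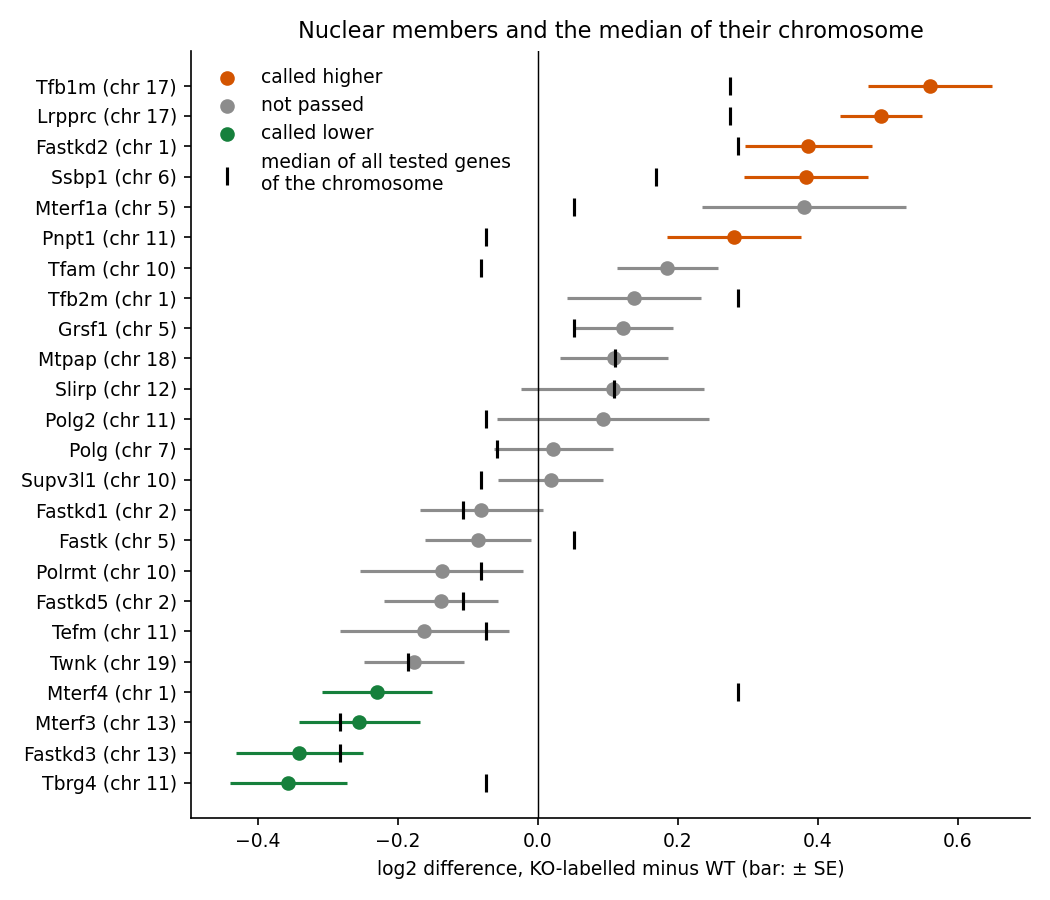
Log2 difference, KO-labelled minus WT, of each of the 24 nuclear members with its SE, beside the median of all tested genes of the same chromosome. Tfb1m and Lrpprc lie above a raised chromosome 17 median of 0.27, Mterf3 lies at the chromosome 13 median of -0.28, and Tbrg4 lies below a chromosome 11 median of -0.07.

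Many nuclear genes for mitochondria are known to carry binding sites for ETS factors such as GABP, and for NRF1, close to their start sites. RefSeq promoter windows (GRCm38.p6) from 250 bases before to 50 bases after the start were matched for 22 of the 24 nuclear members, in 24 windows. The ETS core CCGGAAG, searched on both strands, occurred in 14 of the 24 windows (58.3%), against 8.86% of 32851 windows of all genes. The shorter motif GCGCATGC, taken as a partial site of NRF1 and searched likewise, occurred in 2 windows (8.33%), those of Polrmt and Tfb2m, against 2.71% of all. The full palindromic NRF1 motif, which contains this partial site, occurred in 0 windows of members and in 0.971% of all. The windows were not matched for base composition. The match did not divide the genes by direction, since Ssbp1, which rose, and Tbrg4 and Mterf4, which fell, held the ETS core, whereas Tfb1m, Lrpprc, Fastkd2 and Pnpt1, which rose, and Fastkd3, which fell, did not. The windows of the members with the largest decrease and the largest increase are shown, at chr11:6626018-6626317 and chr17:3557706-3558005, both on the minus strand, with ETS cores in capitals.
Tbrg4: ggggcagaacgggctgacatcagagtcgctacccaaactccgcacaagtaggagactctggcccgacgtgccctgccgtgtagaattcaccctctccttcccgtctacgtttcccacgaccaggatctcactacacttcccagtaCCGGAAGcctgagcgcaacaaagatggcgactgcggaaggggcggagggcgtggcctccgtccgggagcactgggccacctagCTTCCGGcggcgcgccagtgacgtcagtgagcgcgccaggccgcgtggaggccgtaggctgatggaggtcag
Tfb1m: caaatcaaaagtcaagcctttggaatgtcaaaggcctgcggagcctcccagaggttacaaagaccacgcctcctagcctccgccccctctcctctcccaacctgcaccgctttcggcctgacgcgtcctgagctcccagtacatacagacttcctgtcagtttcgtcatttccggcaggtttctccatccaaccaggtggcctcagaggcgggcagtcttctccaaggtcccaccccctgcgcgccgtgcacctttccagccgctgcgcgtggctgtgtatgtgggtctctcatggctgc

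Other genes of the pathway were counted in 6 lists. In the order given below, 30.6%, 22.2%, 25%, 50%, 33.3% and 36.4% of their tested genes were called, against 38.9% of all genes tested. Of 36 genes for processing and modification of mitochondrial RNA, 4 rose and 7 fell, with a median log2 difference of -0.02. Angel2, whose product is related to known deadenylases, rose (log2 difference 0.41, adjusted p = 0.000845). Dhx30, an RNA helicase of the granules, fell, with 34.4, 41.1 and 40.0 CPM in KO-labelled and 60.9, 54.0 and 50.1 CPM in WT libraries (log2 difference -0.52, adjusted p = 0.00252), as did the RNA methyltransferase Nsun2 (-0.42) and Ptcd2 (-0.49), the last known in mice for processing of the cytochrome b mRNA. Ptcd2 had 14.7, 17.5 and 16.7 CPM in KO-labelled and 21.3, 22.4 and 25.1 CPM in WT libraries (adjusted p = 0.00265). Angel2 lies on chromosome 1 (median log2 difference 0.29), Nsun2 and Ptcd2 on chromosome 13 (-0.28) and Dhx30 on chromosome 9 (-0.17). The part of the chromosome was not tested for any gene of these lists.

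Of 27 genes for maintenance of mitochondrial DNA and its nucleotides, 4 rose and 2 fell, with a median of 0.02. Top1mt, the mitochondrial topoisomerase, had 8.22, 7.19 and 8.46 CPM in KO-labelled and 5.08, 4.96 and 4.92 CPM in WT libraries (log2 difference 0.67, adjusted p = 0.00136). The protease Lonp1 and the inner membrane protein Mpv17 rose by log2 differences of 0.27 and 0.22, and Atad3a, an inner membrane ATPase tied to the nucleoids, fell by 0.31. Lonp1 lies on chromosome 17, whose median was also 0.27. Of 20 translation factors, 2 rose and 3 fell, with a median of -0.05. Guf1 (0.30) and the initiation factor Mtif2 (0.25) rose, and the elongation factor Gfm2 (-0.24) and the release factor Mtrf1l (-0.39) fell. Gfm2 lies on chromosome 13, whose median was -0.28.

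The list of regulators of nuclear genes for mitochondria held the largest differences. Of its 15 genes, 12 passed the count filter, of which 3 rose and 3 fell. Ppargc1a, the coactivator known for raising mitochondrial biogenesis, had 6.78, 5.72 and 6.86 CPM in KO-labelled libraries, against 0.337, 0.174 and 0.309 CPM in WT libraries, a log2 difference of 4.56 (SE 0.24, adjusted p = 6.85e-07). The groups were far apart, at low levels. Ppargc1b, its relative, stood at 1.77 ± 0.264 CPM in KO-labelled and 0.331 ± 0.0812 CPM in WT libraries (SD, n = 3 each), a log2 difference of 2.40. The nuclear receptor Esrra, a partner of these coactivators, fell (10.5 ± 0.702 CPM in KO-labelled and 19.2 ± 1.87 CPM in WT libraries, log2 difference -0.88), as did Myc (37.4 ± 1.92 and 72.1 ± 4.57 CPM, -0.95).

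Proteins taken as measures of mitochondrial mass did not move together. Of 15 such genes, 4 rose and 1 fell, with a median of -0.04; the chaperones Hspe1 (0.49), Hspd1 (0.43) and Hspa9 (0.30) rose and the import channel Tomm40 (-0.46) fell. Hspe1 and Hspd1 lie on chromosome 1, whose median was 0.29. Of the 22 nuclear-encoded core partners of the 13 proteins, 6 rose and 2 fell, with a median of 0.09, against 0.43 for the mitochondrial mRNAs with copies. Ndufs1 (0.48), Ndufv2 (0.48) and Cox5b (0.34) rose, and Uqcrfs1, the iron-sulphur subunit of complex III, had 59.1, 59.5 and 52.6 CPM in KO-labelled and 70.7, 78.0 and 70.3 CPM in WT libraries and fell (log2 difference -0.35, adjusted p = 0.00565). Ndufs1 and Cox5b lie on chromosome 1 (median 0.29), Ndufv2 on chromosome 17 (0.27) and Uqcrfs1 on chromosome 13 (-0.28).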

How the data were processed

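PolyA RNA of 3 KO-labelled and 3 WT libraries of 10T1/2 cells was sequenced. The authors deposited expected counts made with RSEM on GRCm38 after cutadapt, per the submitters' processing notes; no source used here gives the aligner or strand setting. Of 55471 gene identifiers, 55230 matched GENCODE M21. Counts were rounded, filtered (edgeR filterByExpr, minimum count 10, minimum total 15; 15454 genes), scaled by TMM and tested two-sided by quasi-likelihood in edgeR 4.0.16 under R 4.3.3, with Benjamini-Hochberg adjustment over all genes and calls at 0.05. CPM values use TMM-scaled library sizes. Intervals are 1.96 SE. The common biological coefficient of variation was 11.5%. The script was tested on simulated data. Copies were found by aligning annotated transcripts, not the genome (at least 99% identity over 250 bases), and their counts added. No replicate pair of a group matched within sampling noise, so each library counts once. The replicate numbers did not pair the libraries. Alternatives used DESeq2 1.42.0, limma 3.58.1, other filters and scalings, and leaving out each library. The members and lists were chosen with earlier results of these data known; the text names every member and up to 4 genes of each list with the smallest adjusted p. Some cell type markers are not reported here.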

Additional observations from a re-analysis of the deposited data

How the results depend on the processing

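The number of members called ran from 5 to 17 when 1 library was left out, both for the deposited rows and for the rows summed with copies, against 13 and 14 with all libraries. The number of members called higher, 9, was 15 with no count filter and 4 to 15 with 1 library left out. The number of mitochondrial mRNAs called higher, 4 as deposited, was 10 with no count filter and 8 with the replicate number as a block. Over all genes, 2736 of 30473 and 2213 of 15454 were called higher in these 2 fits. The number called lower, 4, was 2 with library size alone, with a filter of 1 CPM or with limma-voom, 2 with summed rows and library size alone, and 1 to 3 with 1 library left out. Tfb1m, Ssbp1, Lrpprc, Fastkd2 and Tbrg4 kept their calls in all 13 alternatives run on deposited rows; Fastkd3 kept its call in 10, Pnpt1 in 7, Mterf3 in 5 and Mterf4 in 1. The direction of mt-Atp6 turned to -0.0235 (log2, adjusted p = 0.949) when it was summed with its copy and WT replicate 1 was left out. Mterf3 turned to 0.0281 relative to its chromosome. Without copies, the log2 ratio of the mt-Co2 share of the mitochondrial mRNA pool was 0.0752 and that of the mt-Atp6 share of the mitochondrial mRNA pool 0.0839, against -0.14 and -0.22 with copies. The log2 ratio of the mt-Co3 share of the mitochondrial mRNA pool ran from -0.01325 to 0.0903 with 1 library left out and was below 0 without KO-labelled replicate 3 (-0.00589) or WT replicate 3. The cause of these changes was not tested, except that the pool without copies lacks the counts of the copies by construction. The difference in the mitochondrial mRNA share of counts was 0.955 percentage points, 0.7099 to 1.32 with 1 library left out.

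With the replicate number as a block, 4994 genes and 14 members were called, 12 members higher and 2 lower, and with summed rows 5008 genes and 13 members, 2 of them lower. Libraries of the same number did not deviate together (correlations of -0.03, -0.11 and -0.10), so the numbers are not taken as pairs.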
